A study of Mus musculus with 25 samples.

Results

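The comparison described here is that of livers of wild-type (WT) mice on Western diet that carried a NAMPT vector with livers of WT mice on the same diet that carried the empty vector (EV). It was made over the 14065 genes that passed a level of 1 CPM, the count scaled to a common library size, in at least 2 libraries, out of 41388 gene identifiers, and over 12 of the 25 libraries of the study, 6 in each group. All mice were male, of the C57B/6J background and, per the labels, 20 weeks old, and Western diet was fed for 12 weeks. WT mice carried the floxed Sirt1 allele without the Albumin-Cre transgene, and both groups received an adeno-associated virus of serotype 8 (AAV8) by tail vein injection. By the sample records 12 weeks passed from the vector to the end of the study, while the paper's methods name a shorter time to assay after AAV8. The NAMPT virus expressed its insert from the thyroxine binding globulin promoter, which is active in hepatocytes. The other 13 libraries came from 3 chow-fed WT EV mice and from mice labelled as liver-specific SIRT1 knockouts (LKO) on Western diet with EV (n = 5) or NAMPT (n = 5). They entered the fit and the test of the difference between genotypes. The treatment text of the labels calls the insert SIRT1, while the titles call it NAMPT, and the titles were followed. Neither a batch nor the hour of tissue collection is among the labels.

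NAMPT is the enzyme that joins nicotinamide to phosphoribose to give nicotinamide mononucleotide, the step that usually limits the salvage of nicotinamide into NAD. NAD is the redox carrier of fuel oxidation and the substrate that sirtuins and PARP enzymes consume. The liver also builds NAD from tryptophan and clears surplus nicotinamide by methylation. Hepatocytes make most of the RNA of the organ and carry its bile acid, drug and fat metabolism, whereas Kupffer cells, infiltrating leukocytes, endothelial cells and stellate cells contribute the remainder. In whole-liver RNA, fewer cells of a type and less RNA per cell cannot be told apart.

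Each library held 20166175 to 32937326 gene counts. The WT NAMPT libraries stood far apart from each other. On the first principal component (PC1) of log2 CPM over all 25 libraries, which took 32.6% of the variance, the WT EV libraries scored -23.95 to 14.87. WT NAMPT replicates 1 to 4 scored 37.94, 63.98, 39.32 and 26.93, above every WT EV library. Replicate 5 scored 5.749 and replicate 6 scored -34.53, below every WT EV library. Of the 12 libraries compared, quality weights in the fit were lowest in WT NAMPT replicates 6 (0.336), 2 (0.401) and 1 (0.506). They were highest in WT EV replicate 2 (1.91) and WT NAMPT replicates 4 (1.85) and 3 (1.62). The share of mitochondrial transcripts in the counts was 4.07 to 8.57% in WT NAMPT against 4.83 to 8.10% in WT EV. Counts of Nampt itself did not separate the groups. The lowest, median and highest WT EV levels were 38.3, 49.2 and 54.1 CPM and those in WT NAMPT were 46.8, 58.8 and 77.8 CPM (log2 fold change 0.34, SE 0.16, adjusted p = 0.144 with limma), and replicate 6 held 59.9 CPM. Whether reads from the vector insert were counted under the mouse gene is not given in the sources used here. Sirt1 was at 7.99 to 9.53 CPM in WT EV and 7.62 to 9.32 CPM in WT NAMPT (log2 fold change -0.11, SE 0.10, adjusted p = 0.504). Its mean over the whole gene was 8.57 ± 1.34 CPM (SD, n = 5) in EV and 9.82 ± 1.36 CPM (SD, n = 5) in NAMPT livers labelled LKO, so gene counts did not set those labels apart. All levels are CPM scaled by TMM size factors.

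**Figure D1:**
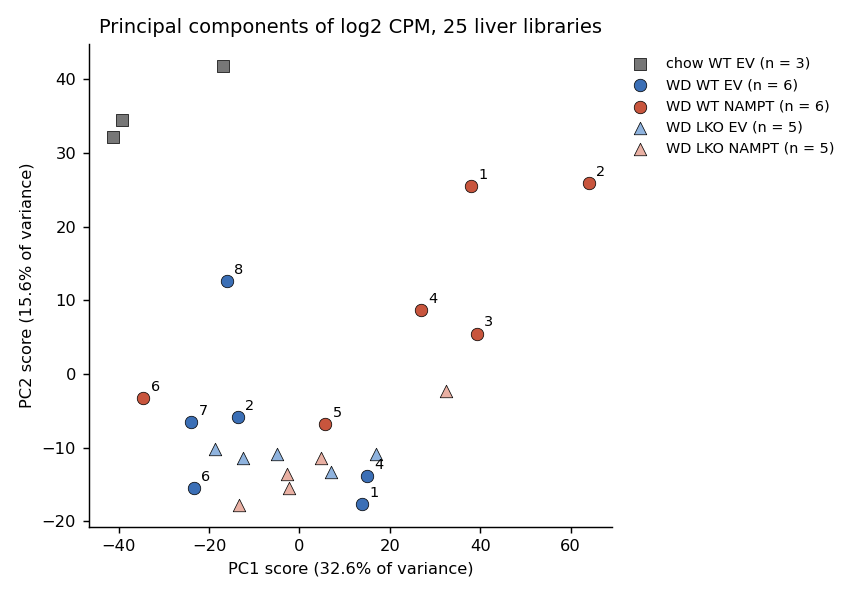
Scores on the first (horizontal axis) and the second principal component (vertical axis) of log2 CPM for the 25 libraries, with the replicate numbers of the WD WT groups beside the points. WT NAMPT replicates 1 to 4 lie at PC1 scores of 26.93 to 63.98, while replicates 5 and 6 lie at 5.749 and -34.53, within or below the range of the WT EV libraries.

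In this comparison 1890 genes (13.4% of those tested) were called at an adjusted p-value of 0.05 or less. NAMPT livers were higher for 1079 genes (7.67%) and lower for 811 (5.77%). Scaling by library size alone gave 2010 higher and 271 lower genes, and scaling by upper quartiles gave 1214 and 594. With library size alone the median log2 fold change of all genes was 0.16, whereas it was 0.00 with TMM factors, so a fall depends on that scaling more than a rise. The count also depended on single libraries. It was 2846 without NAMPT replicate 6, 132 without NAMPT replicate 3 and 291 without EV replicate 2. Without NAMPT replicate 6, 1884 of the 1890 calls were shared in the same direction, and without NAMPT replicate 3, 130 were. The edgeR quasi-likelihood test called 428 genes, of which 412 were shared with the 1890 in the same direction. A fit with 2 surrogate variables called 68, of which 52 were shared. The first of these variables was -0.55 to -0.19 in NAMPT replicates 1 to 4, below every WT EV library (-0.11 to 0.20). In replicates 5 and 6 it was -0.025 and 0.30. This fit can therefore also take out part of the difference between the groups, so a call lost in it does not tell the 2 apart.

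The called genes that rose and those that fell differed in abundance. Genes called higher had a median average log2 CPM of 2.51 and a median log2 fold change of 0.82. For the genes called lower these medians were 5.77 and -0.42. Of the 2151 genes with an average log2 CPM of 6 or more, 49 were called higher and 372 lower. Of the 4222 genes between 0 and 3, 520 were called higher and 75 lower. A change past 2-fold was reached by 356 genes called higher and by 78 called lower.

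**Figure D2:**
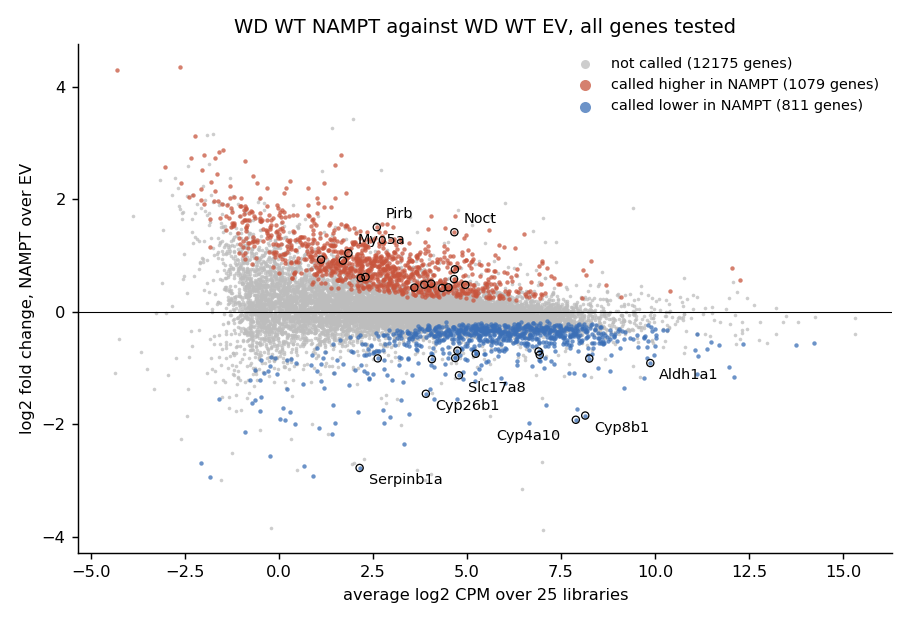
Log2 fold change of WD WT NAMPT over WD WT EV (vertical axis) against the average log2 CPM over 25 libraries (horizontal axis), 1 point per gene for 14065 genes, with genes called higher in red and lower in blue. Circles mark the 29 named genes whose libraries did not overlap, and the calls with the highest average levels, at the right, are mostly lower.

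NAMPT replicates 1 to 4 carried most of the shift. Among the 1079 genes called higher, the level was above all 6 EV libraries for 904 genes in replicate 1, 1044 in replicate 2, 992 in replicate 3 and 928 in replicate 4. This held for 431 genes in replicate 5 and 92 in replicate 6. Among the 811 genes called lower, 676 to 779 lay below all EV libraries in replicates 1 to 4, 356 in replicate 5 and 147 in replicate 6. The calls were made on these same libraries, so the counts describe how each library sits and are no further test. The libraries of the groups did not overlap at all for 52 genes that were higher in NAMPT (0.37% of genes tested) and 83 that were lower (0.59%), of which 40 and 64 were called. Those called with a mean log2 CPM not under 1 were ranked by size of change, and the first 15 in each direction were taken, of which 29 are named here. In all 29 the library of replicate 6 therefore lay on the same side as the other 5.

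The largest rise in that ranking was in Pirb (ENSMUSG00000058818, chr7:3711409-3720391; GRCm38 throughout), an inhibitory immunoglobulin-like receptor of myeloid and B cells. Its lowest, median and highest levels were 3.55, 4.43 and 4.89 CPM in EV and 5.28, 13.2 and 16.8 CPM in NAMPT (log2 fold change 1.503, SE 0.23, adjusted p = 0.00316). Replicates 1 to 3 held at least 15.5 CPM and replicate 6 was barely above the highest EV library. Noct (ENSMUSG00000023087, chr3:51224447-51251644) encodes nocturnin, a rhythmically expressed NADP(H) phosphatase. Its levels were 9.26, 13.4 and 30.6 CPM in EV and 31.2, 53.2 and 63.4 CPM in NAMPT (log2 fold change 1.41, SE 0.36, adjusted p = 0.0158), and replicate 6 held 51.6 CPM, well inside the NAMPT range. Slc20a1 (ENSMUSG00000027397, chr2:129198764-129211616), a sodium-dependent phosphate carrier, also rose. Its levels were 19.5, 23.5 and 28.1 CPM in EV and 34.3, 38.1 and 39.7 CPM in NAMPT (log2 fold change 0.75, SE 0.12, adjusted p = 0.00331). All 6 NAMPT livers were close to each other for this gene, and chow-fed WT livers were at 10.4 ± 3.35 CPM (SD, n = 3).

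The other rises named from that ranking were in genes of mixed functions. Myo5a, an actin motor that moves vesicles, was at 2.402 to 4.74 CPM in EV and 5.28 to 11.96 CPM in NAMPT (log2 fold change 1.04, SE 0.22, adjusted p = 0.0092). Dok1, an adaptor that restrains tyrosine kinase signals, had a log2 fold change of 0.93 ± 0.22 (adjusted p = 0.0126), and Pdgfb, a growth factor for stellate cells, one of 0.91 ± 0.19 (adjusted p = 0.00922). Zc3h12a, a ribonuclease that degrades cytokine transcripts, was at 3.99 to 5.08 CPM in EV and 5.28 to 8.32 CPM in NAMPT (log2 fold change 0.62, SE 0.13, adjusted p = 0.00922). Lyn, a Src-family kinase of myeloid and B cells, was at 24.7 to 28.4 CPM in EV and 30.2 to 51.3 CPM in NAMPT (log2 fold change 0.48, SE 0.09, adjusted p = 0.00582). The RUNX partner Cbfb (0.50), the transcriptional coregulator Sertad1 (0.60), the zinc-finger gene Zfp710 (0.58) and Tmco4 (0.48) also rose on the log2 scale, with adjusted p of 0.0156, 0.0321, 0.00851 and 0.0121. A further 3 rises were in housekeeping functions. These were Nop56 (log2 fold change 0.43, SE 0.12, adjusted p = 0.0232) and Pdcd11 (log2 fold change 0.42, SE 0.08, adjusted p = 0.00718), which process ribosomal RNA, and Aprt (log2 fold change 0.43, SE 0.10, adjusted p = 0.0128), which salvages adenine. Pdcd11 had narrow ranges of 15.4 to 20.04 CPM in EV and 22.2 to 24.8 CPM in NAMPT.

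Among the ranked falls without overlap, Serpinb1a (ENSMUSG00000044734, chr13:32842092-32851185), an inhibitor of neutrophil serine proteases, changed most. Its levels were 4.76, 9.67 and 17.2 CPM in EV and 1.04, 1.74 and 3.61 CPM in NAMPT (log2 fold change -2.78, SE 0.50, adjusted p = 0.00582). The highest NAMPT value was that of replicate 6. Cyp4a10 (ENSMUSG00000066072, chr4:115518264-115533649), a fatty acid omega-hydroxylase, had levels of 229, 307 and 614 CPM in EV and 27.3, 103 and 179 CPM in NAMPT (log2 fold change -1.92, SE 0.33, adjusted p = 0.00413). Cyp8b1 (ENSMUSG00000050445, chr9:121914356-121916305) encodes the sterol 12-alpha-hydroxylase that makes cholic acid. Its levels were 349.9, 409 and 509 CPM in EV and 39.9, 102 and 329 CPM in NAMPT (log2 fold change -1.85, SE 0.28, adjusted p = 0.00316). For Cyp8b1 the NAMPT libraries split, since replicates 1 to 4 held 39.9 to 107 CPM while replicates 5 and 6 held 299 and 329 CPM, nearer to the lowest EV library.

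Both ends of retinoid oxidation were also lower. Cyp26b1, which degrades retinoic acid, was at 19.3 to 36.9 CPM in EV and 4.201 to 13.9 CPM in NAMPT (log2 fold change -1.46, SE 0.33, adjusted p = 0.0121). Aldh1a1, which makes retinoic acid from retinaldehyde, was at 916 to 1482 CPM in EV and 379.9 to 859 CPM in NAMPT (log2 fold change -0.91, SE 0.16, adjusted p = 0.00582). Slc17a8, a vesicular glutamate carrier, fell as well (log2 fold change -1.13, SE 0.26, adjusted p = 0.0121). Coq8a, which takes part in coenzyme Q synthesis, was at 297 to 472 CPM in EV and 131 to 295 CPM in NAMPT (log2 fold change -0.83, SE 0.17, adjusted p = 0.00851), and Tymp, which splits thymidine, was at 40.04 to 51.6 CPM in EV and 16.001 to 37.7 CPM in NAMPT (log2 fold change -0.75, SE 0.17, adjusted p = 0.0111). Tymp shares exon sequence with Sco2 on the same strand and Coq8a with Cdc42bpa on the other. Strand is not given, so how far reads there entered the counts is uncertain. The same holds for other genes named in this report. Among them are Hsd3b7 with Gm49388 and Nop56 with Snord57 on the same strand, and Csf1r with Hmgxb3 and Ccnd1 with LTO1 on the opposite strand. Others of the named falls without overlap were in Nfil3, described with the clock genes, Trmt9b (log2 fold change -0.83, SE 0.21, adjusted p = 0.0149), the galectin-related Lgalsl (log2 fold change -0.82, SE 0.19, adjusted p = 0.0122), the ubiquitin ligase Rnf125 (log2 fold change -0.77, SE 0.18, adjusted p = 0.0126), Pnkd (log2 fold change -0.71, SE 0.14, adjusted p = 0.00759) and Ypel2 (log2 fold change -0.69, SE 0.16, adjusted p = 0.0128). For Lgalsl and Ypel2 the lowest NAMPT library was replicate 6, at 14.1 and 11.6 CPM. Pirb, Serpinb1a, Cyp4a10 and Aldh1a1 have close copies in the mouse genome. By the study's methods reads that aligned to several places were not counted, so their values rest on the reads that told the copies apart.

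**Figure D3:**
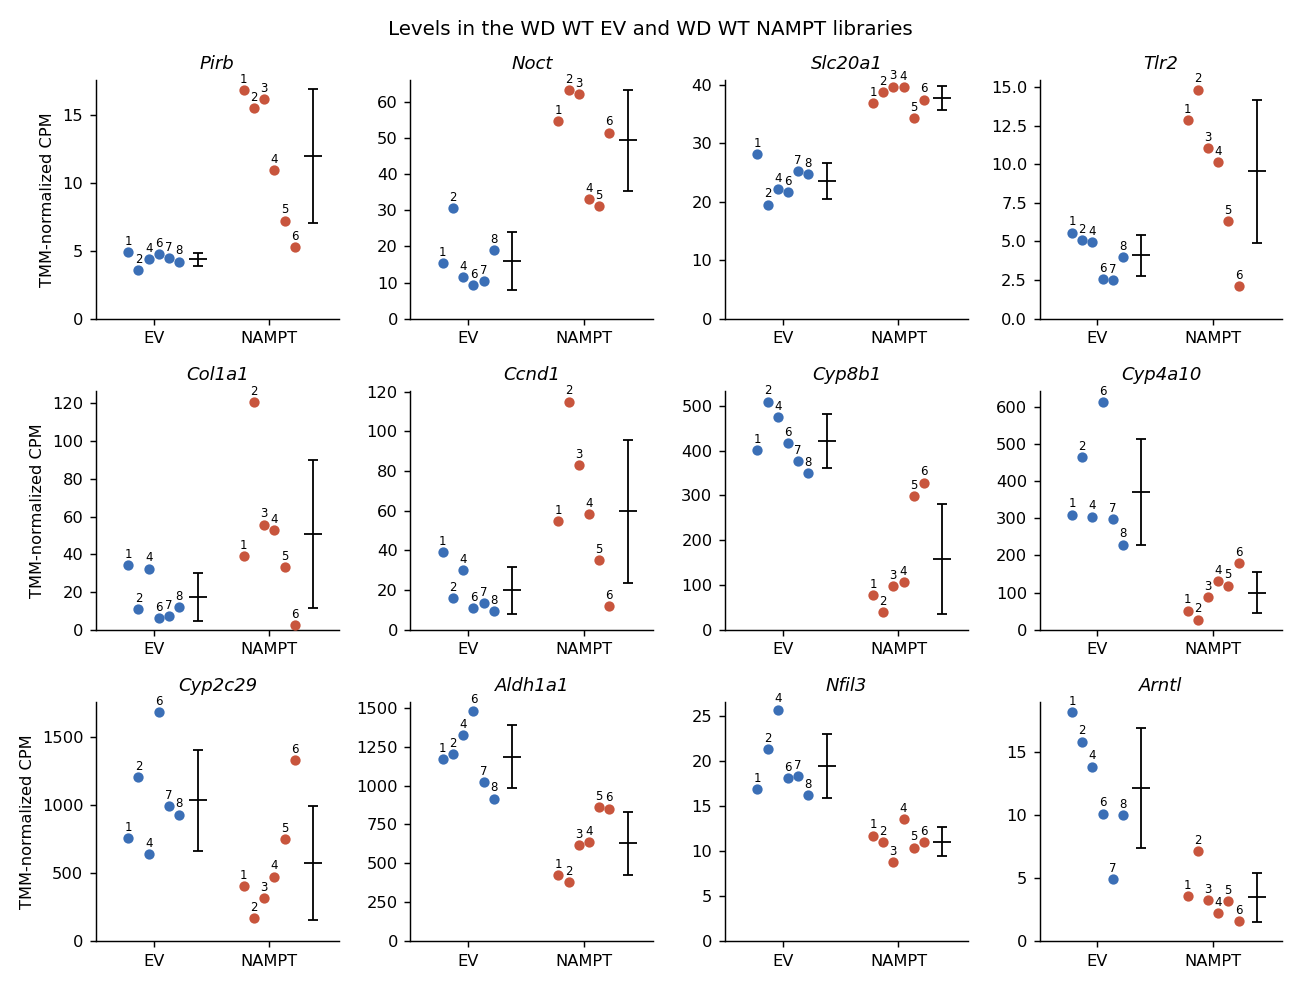
TMM-normalized CPM (vertical axis, from 0) of 12 genes in the 6 WD WT EV libraries (blue) and the 6 WD WT NAMPT libraries (red), 1 point per library with its replicate number, and the mean with the SD as a black bar. Replicate 6 of NAMPT lies within the EV range for Ccnd1 and Cyp2c29, below it for Tlr2 and Col1a1, and with the other NAMPT libraries for Slc20a1, Noct, Nfil3 and Arntl.

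Promoters were looked up for the 6 named genes that also belong to the clock, bile acid, PPARa or Fc receptor lists, and RefSeq sequence (GRCm38.p6, 250 bases before to 50 after the start site) matched 4 of them, Pirb, Noct, Cyp8b1 and Nfil3. No promoter sequence is shown for Lyn and Cyp4a10. Both strands were searched for the E-box of clock factors (CACGTG), the D-box that binds NFIL3 and the PAR factors (TTATGTAA), an element of nuclear receptors (AGGTCA), and the core of PU.1 sites in myeloid genes (GAGGAAGT). Of 32851 promoters of 300 bases, 7.15% held the E-box, 0.938% the D-box, 16.3% the AGGTCA element and 3.2% the PU.1 core. The Pirb window held the PU.1 core from 120 bases before the start site, and the Nfil3 window held the AGGTCA element on the opposite strand from 12 bases before it. The Noct and Cyp8b1 windows held none of the 4 sequences. Pirb and Nfil3, the clock repressor that fell, are printed 5′ to 3′ on the strand of the gene, with the matches in capitals. Pirb was the largest called rise without overlap among genes with a mean log2 CPM not under 1. A match is a description of the sequence and no evidence of binding.
Pirb, chr7:3720333-3720632, minus strand: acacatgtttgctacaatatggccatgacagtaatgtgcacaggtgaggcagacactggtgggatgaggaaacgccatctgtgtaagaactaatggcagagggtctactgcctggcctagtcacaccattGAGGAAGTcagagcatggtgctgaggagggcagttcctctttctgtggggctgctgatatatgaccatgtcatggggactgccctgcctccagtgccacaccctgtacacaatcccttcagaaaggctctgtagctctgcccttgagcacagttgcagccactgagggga
Nfil3, chr13:52980990-52981289, minus strand: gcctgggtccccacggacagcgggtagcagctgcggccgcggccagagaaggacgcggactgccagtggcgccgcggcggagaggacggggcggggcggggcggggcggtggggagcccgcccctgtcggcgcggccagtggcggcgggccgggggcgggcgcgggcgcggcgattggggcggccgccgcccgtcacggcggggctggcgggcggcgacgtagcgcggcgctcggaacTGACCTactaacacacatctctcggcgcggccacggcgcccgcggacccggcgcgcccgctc

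Members of the NAD synthesis list gave 1 rise and 4 falls among 16 tested (31.2% in either direction, against 13.4% of all genes). Acmsd, which diverts the tryptophan pathway away from NAD, had levels of 5.32, 9.81 and 15.7 CPM in EV and 8.73, 20.3 and 50.9 CPM in NAMPT (log2 fold change 1.06, SE 0.30, adjusted p = 0.0245). Replicates 1 to 4 were above all EV libraries, while replicates 5 and 6, at 8.73 and 15.1 CPM, were within their range. The kynurenine pathway enzymes Kmo (log2 fold change -0.44, SE 0.12, adjusted p = 0.0188), Ido2 (log2 fold change -0.54, SE 0.15, adjusted p = 0.0216) and Kynu (log2 fold change -0.33, SE 0.10, adjusted p = 0.0332) fell, as did Nmnat1, the nuclear enzyme of the last step of NAD assembly (log2 fold change -0.29, SE 0.10, adjusted p = 0.047). Under the quasi-likelihood test 1 of the 16 was called higher and 0 lower. Among 19 tested genes of NAD use and nicotinamide clearance, Parp14, an interferon-inducible ADP-ribosyltransferase, rose (log2 fold change 0.74, SE 0.18, adjusted p = 0.0134) and Nadk2, the mitochondrial NAD kinase, fell (log2 fold change -0.36, SE 0.09, adjusted p = 0.0158). These 2 of 19 were a smaller share than the 13.4% of all genes. Neither NAD list held a call without NAMPT replicate 3 or with 2 surrogate variables.

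Receptors and signalling genes of myeloid cells gave the largest share of rises among the gene lists. In the list of Fc receptors, paired receptors and ITAM signalling, 23 of 27 genes tested were called higher and 1 lower (88.9% in either direction, against 13.4% of all genes), with a median log2 fold change of 0.94 against 0.00 for all genes. Ptpn6, the phosphatase SHP-1 that paired receptors recruit, was at 16.998 to 23.8 CPM in EV and 15.8 to 33.8 CPM in NAMPT (log2 fold change 0.57, SE 0.12, adjusted p = 0.00851). The 1 lower member, named after its value was seen, was the inhibitory Fc receptor Fcgr2b (log2 fold change -0.33, SE 0.10, adjusted p = 0.0351), which sinusoidal endothelium also makes. The members called higher numbered 8 by the quasi-likelihood test and 2 with 2 surrogate variables. They numbered 3 when NAMPT replicate 3 was left out and 26 when replicate 6 was.

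Toll-like receptor and NF-kB genes rose in 19 of 36 cases and fell in 0 (52.8%, against 7.67% of all genes called higher), with a median of 0.43. Tlr2, the receptor for bacterial lipoproteins, had levels of 2.48, 4.45 and 5.57 CPM in EV and 2.101, 10.6 and 14.8 CPM in NAMPT (log2 fold change 1.21, SE 0.27, adjusted p = 0.0122), and replicate 6 was the lowest of all 12 libraries. Its partner Tlr1 (log2 fold change 1.72, SE 0.43, adjusted p = 0.0152), and the NF-kB subunits Relb (log2 fold change 1.201, SE 0.24, adjusted p = 0.00759) and Nfkb1 (log2 fold change 0.42, SE 0.09, adjusted p = 0.0111), rose too. Of 31 interferon-stimulated genes 13 were called higher and 0 lower (41.9%). They included Oas1a (log2 fold change 1.47, SE 0.36, adjusted p = 0.0149), a sensor of double-stranded RNA like Ddx58 (log2 fold change 0.48, SE 0.13, adjusted p = 0.0185), and Isg15 (log2 fold change 1.27, SE 0.38, adjusted p = 0.0289), a ubiquitin-like modifier. Replicate 3 held 34.4 CPM of Isg15, and the other NAMPT libraries 6.15 to 15.6 CPM. Chemokines and their receptors gave 8 rises of 29 (27.6%), among them Cxcl16 (log2 fold change 0.75, SE 0.17, adjusted p = 0.0122), Ccl6 (log2 fold change 1.11, SE 0.29, adjusted p = 0.0178) and Cxcl10 (log2 fold change 1.29, SE 0.39, adjusted p = 0.0309), and MHC class II presentation gave 3 of 11 (27.3%), Ifi30 (log2 fold change 0.86, SE 0.19, adjusted p = 0.0111), Ctss (log2 fold change 0.86, SE 0.22, adjusted p = 0.0167) and H2-DMb1 (log2 fold change 0.82, SE 0.26, adjusted p = 0.0384). Without NAMPT replicate 3, the calls in these 4 lists fell to 1, 0, 0 and 0. The quasi-likelihood test called 4, 1, 4 and 1, and the fit with 2 surrogate variables called none of them.

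Marker levels of macrophages moved with these lists. For recruited and lipid-associated macrophages 7 of 14 markers were called higher (50%, against 7.67% of all genes), and the summed level was 88.8 to 287 CPM in EV and 96.2 to 724 CPM in NAMPT. Lpl (log2 fold change 1.44, SE 0.30, adjusted p = 0.00922), Itgam (log2 fold change 1.87, SE 0.43, adjusted p = 0.0122), Cd68 (log2 fold change 0.995, SE 0.23, adjusted p = 0.0125), Lgals3 (log2 fold change 1.46, SE 0.35, adjusted p = 0.0134) and Itgax (log2 fold change 2.11, SE 0.55, adjusted p = 0.0174) were among them. Kupffer cell markers rose in 4 of 10 cases (40%), with sums of 329 to 472 CPM in EV and 310.4 to 799 CPM in NAMPT. The log2 fold changes of the 10 ran from -1.08 to 2.79, with 9 positive. None of the 10 was called lower, but 1 was when EV replicate 4 or NAMPT replicate 5 was left out. The rises were in the macrophage growth factor receptor Csf1r (log2 fold change 0.64, SE 0.13, adjusted p = 0.00878), Cd5l (log2 fold change 0.91, SE 0.22, adjusted p = 0.0149), the F4/80 gene Adgre1 (log2 fold change 0.91, SE 0.23, adjusted p = 0.0149) and the scavenger receptor Marco (log2 fold change 2.79, SE 0.76, adjusted p = 0.02). In NAMPT replicate 6 the sums of both lists, 96.2 and 310.4 CPM, were not above the EV range. Neutrophil markers rose in 3 of 7 tested (42.9%), with sums of 3.801 to 9.23 and 4.47 to 30.6 CPM. Another 5 neutrophil markers did not pass the filter on low counts, though none was at 0 in all 12 libraries. No T and NK cell marker was called by limma or the quasi-likelihood test among 11 tested (2 at an unadjusted p-value under 0.05), and 9 did not pass the filter. Their summed level was 6.598 to 13.04 CPM in EV and 9.05 to 16.6 CPM in NAMPT. For B cell markers 1 of 8 was called higher (12.5%), and the sums of 15.1 to 53.4 and 16.8 to 41.8 CPM overlapped. Of dendritic cell markers, 2 of 7 were called higher (28.6%). Without NAMPT replicate 3, and also with 2 surrogate variables, the recruited macrophage, Kupffer cell, neutrophil, B cell and dendritic cell lists held 0 calls, and the recruited macrophage median went from 1.45 to 0.20 with the latter. The part of cell numbers in the rises of immune genes was not tested.

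Complement and coagulation genes gave 8 rises and 0 falls among 39 tested (20.5%, against 7.67% of all genes called higher). Properdin Cfp (log2 fold change 0.78, SE 0.18, adjusted p = 0.0122), C1qa (log2 fold change 0.72, SE 0.17, adjusted p = 0.0127) and the receptor C5ar1 (log2 fold change 1.53, SE 0.37, adjusted p = 0.0134) rose, which macrophages express, and so did C3, a hepatocyte product (log2 fold change 0.55, SE 0.16, adjusted p = 0.0268). Acute-phase genes gave 6 rises and 1 fall of 29 (24.1%, against 13.4% of all genes in either direction). The heme carrier Hpx was at 2943 to 4527 CPM in EV and 3143 to 7845 CPM in NAMPT (log2 fold change 0.78, SE 0.19, adjusted p = 0.0137), with Saa3 (log2 fold change 1.57, SE 0.46, adjusted p = 0.0281) and the metalloreductase Steap4 (log2 fold change 0.63, SE 0.16, adjusted p = 0.0155), and Serpina3m fell (log2 fold change -0.65, SE 0.16, adjusted p = 0.0153). Among 30 genes of insulin and PI3K-AKT signalling 6 rose and 1 fell (23.3% in either direction). The risers included the leukocyte subunits Pik3cg (log2 fold change 1.18, SE 0.23, adjusted p = 0.00759), Pik3r5 (log2 fold change 1.65, SE 0.39, adjusted p = 0.0128) and Pik3cd (log2 fold change 1.13, SE 0.28, adjusted p = 0.0149), and Akt1, which most cells express (log2 fold change 0.37, SE 0.07, adjusted p = 0.00759). Akt1 was at 37.6 to 48.2 CPM in EV and 47.6 to 66.9 CPM in NAMPT. Complement and coagulation genes had 2 rises by the quasi-likelihood test and 3 with 2 surrogate variables, with 0 falls in both. They had 0 calls without NAMPT replicate 3 and 8 rises and 6 falls without replicate 6. Acute-phase genes had 0 calls by the quasi-likelihood test, with 2 surrogate variables and without replicate 3, and the PI3K-AKT list had 3, 0 and 2 rises.

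**Figure D4:**
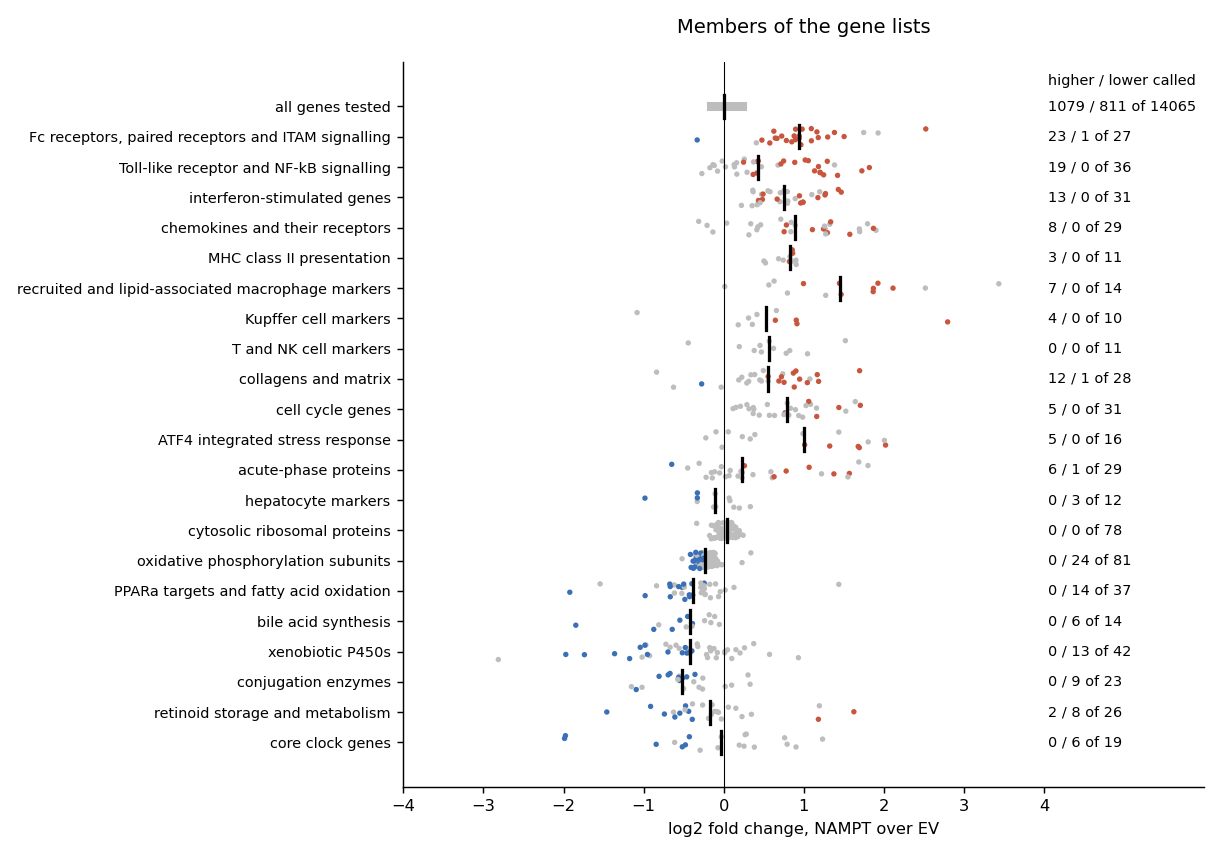
Log2 fold change of WD WT NAMPT over WD WT EV (horizontal axis) for each tested member of 21 gene lists, with members called higher in red, called lower in blue and not called in grey, and the median as a black bar. The top row gives the interquartile range of all 14065 genes in grey, and the counts of called members at the right run from 23 higher of 27 for Fc receptor genes to 24 lower of 81 for oxidative phosphorylation.

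Matrix genes gave 12 rises and 1 fall among 28 tested (46.4% in either direction, against 13.4% of all genes), with a median log2 fold change of 0.55. Their summed level, which the most abundant members set, was 3165 to 4094 CPM in EV and 3213 to 3965 CPM in NAMPT. Col1a1, the main fibrillar collagen chain of scars, had levels of 6.32, 11.5 and 34.4 CPM in EV and 2.59, 45.96 and 121 CPM in NAMPT (log2 fold change 1.696, SE 0.48, adjusted p = 0.0249). The groups overlapped widely, since EV replicates 1 and 4 held 34.4 and 32.4 CPM and NAMPT replicate 6 held the lowest value of all. Col3a1 (log2 fold change 1.18, SE 0.33, adjusted p = 0.0233), the type VI collagen chains Col6a1 (log2 fold change 0.95, SE 0.24, adjusted p = 0.0159) and Col6a3 (log2 fold change 1.04, SE 0.26, adjusted p = 0.0144), the proteoglycan Lum (log2 fold change 0.87, SE 0.21, adjusted p = 0.0137) and the growth factor Tgfb1 (log2 fold change 0.88, SE 0.20, adjusted p = 0.0115) rose as well. With 2 surrogate variables Col3a1 was at -0.02 (adjusted p = 0.96). Col18a1, a basement membrane collagen that hepatocytes also make, fell (log2 fold change -0.28, SE 0.09, adjusted p = 0.0346). Stellate cell markers gave 3 rises of 12 (25%, against 7.67% of all genes called higher), Pdgfrb among them (log2 fold change 0.57, SE 0.13, adjusted p = 0.0128), with sums of 512 to 647 CPM in EV and 521 to 682 CPM in NAMPT. Markers of myofibroblasts rose in 3 of 8 cases (37.5%), all of them collagens of the matrix list, and in 0 by the quasi-likelihood test, with 2 surrogate variables or without NAMPT replicate 3. Of metalloproteinases and their inhibitors 4 of 17 rose, such as Mmp2 (log2 fold change 0.91, SE 0.20, adjusted p = 0.0121), and Mmp19 fell (log2 fold change -0.39, SE 0.10, adjusted p = 0.0152), which is 29.4% in either direction. By the quasi-likelihood test 1 stellate marker and 1 gene of the metalloproteinase list were called, with 2 surrogate variables 0 and 0, and without NAMPT replicate 3 1 and 0. The matrix list had 1 call by the quasi-likelihood test, 0 with 2 surrogate variables and 0 without NAMPT replicate 3, and 17 rises and 2 falls without replicate 6.

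Genes of the cell cycle had positive fold changes for all 31 members tested, and 5 were called higher (16.1%, against 7.67% of all genes). Ccnd1, the cyclin D of hepatocyte entry into the cycle, had levels of 9.33, 14.8 and 39.3 CPM in EV and 11.9, 56.5 and 115 CPM in NAMPT (log2 fold change 1.705, SE 0.36, adjusted p = 0.00994). Replicates 1 to 4 were above every EV library, whereas replicates 5 and 6, at 34.98 and 11.9 CPM, were within the EV range. Mcm5 (log2 fold change 1.16, SE 0.32, adjusted p = 0.0209) and Mcm6 (log2 fold change 1.06, SE 0.29, adjusted p = 0.0203), subunits of the replicative helicase, rose too. Of 16 targets of the ATF4 stress response 5 rose (31.2%), including the transcription factors Ddit3 (log2 fold change 1.01, SE 0.23, adjusted p = 0.0125) and Atf3 (log2 fold change 2.02, SE 0.58, adjusted p = 0.0258) and the mitochondrial folate enzyme Mthfd2 (log2 fold change 1.32, SE 0.35, adjusted p = 0.0178). The quasi-likelihood test called 4 cell cycle and 6 ATF4 genes higher. Without NAMPT replicate 3 neither list held a call, and without replicate 6 the counts were 11 and 8. With 2 surrogate variables neither held a call, and the medians went from 0.79 and 0.999 to -0.09 and 0.08.

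Of 14 bile acid synthesis genes 6 were called lower and 0 higher (42.9%, against 5.77% of all genes called lower), with fold changes of -1.85 to -0.055 on the log2 scale and a median of -0.42. Their summed level was 7182 to 9021 CPM in EV and 4001 to 9555 CPM in NAMPT, where replicate 6 was above every EV library. Besides Cyp8b1, the falls included Cyp27a1, the sterol 27-hydroxylase of the alternative route (log2 fold change -0.64, SE 0.17, adjusted p = 0.0181), and Akr1d1, the 5-beta-reductase (log2 fold change -0.87, SE 0.20, adjusted p = 0.0122). They also included Hsd3b7 (log2 fold change -0.45, SE 0.12, adjusted p = 0.0174) and Baat, which joins bile acids to taurine (log2 fold change -0.55, SE 0.15, adjusted p = 0.0209). Akr1d1 was at 92.6 to 182 CPM in EV and 37.8 to 125 CPM in NAMPT, where replicate 6 was the highest. Of 17 genes of bile acid transport 3 fell and 2 rose (29.4%, against 13.4% of all genes in either direction). The basolateral uptake carriers Slc10a1 (log2 fold change -1.06, SE 0.26, adjusted p = 0.0137) and Slco1b2 (log2 fold change -0.63, SE 0.21, adjusted p = 0.0424) and the exporter Abcc3 (log2 fold change -0.56, SE 0.17, adjusted p = 0.0337) were lower, and the multidrug exporter Abcb1a was higher (log2 fold change 0.94, SE 0.31, adjusted p = 0.0431), which became -0.08 (adjusted p = 0.93) with 2 surrogate variables. In NAMPT replicate 6 Slc10a1 was at 776 CPM, above the highest EV library at 663 CPM. The quasi-likelihood test called 1 of the 14 synthesis genes, which was also the count without NAMPT replicate 3, and the fit with 2 surrogate variables called 0. The transport list held 0 calls in each of these 3 fits.

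Targets of PPARa and other genes of fatty acid oxidation fell in 14 of 37 cases and rose in 0 (37.8%, against 5.77% of all genes called lower), with a median of -0.39. Hadh (log2 fold change -0.52, SE 0.11, adjusted p = 0.00878), the carnitine transferase Cpt2 (log2 fold change -0.40, SE 0.08, adjusted p = 0.00936) and Etfdh, which passes electrons from fat oxidation to coenzyme Q (log2 fold change -0.43, SE 0.10, adjusted p = 0.0121), fell. The median was -0.23 with library size alone, and the count of falls was 6 by the quasi-likelihood test, 1 with 2 surrogate variables, 3 without NAMPT replicate 3 and 19 with the replicate number as a block. Subunits of oxidative phosphorylation changed by less but in the same direction, with 24 of 81 called lower (29.6%), 0 higher and a median of -0.23. Examples are Uqcrc2 (log2 fold change -0.36, SE 0.08, adjusted p = 0.0125), Cox8a (log2 fold change -0.35, SE 0.09, adjusted p = 0.0149) and Ndufc1 (log2 fold change -0.42, SE 0.11, adjusted p = 0.0158). Cox8a was lower in every NAMPT library (216 to 288 CPM) than in any EV library (303 to 360.5 CPM). No subunit was called by the quasi-likelihood test, with 2 surrogate variables or without NAMPT replicate 3, and library size alone gave 3 falls and a median of -0.08. The mitochondrially encoded genes had 2 falls of 13, mt-Cytb among them (log2 fold change -0.59, SE 0.18, adjusted p = 0.033), a share of 15.4% against 5.77% of all genes called lower. They also had 0 calls by the quasi-likelihood test, with 2 surrogate variables and without NAMPT replicate 3, and 7 falls without replicate 6. None of 78 cytosolic ribosomal protein genes was called by limma (4 at an unadjusted p-value under 0.05) or by the quasi-likelihood test.

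Of 42 xenobiotic P450 genes and their regulators 13 fell and 0 rose (31%, median -0.42), and of 23 conjugation enzymes 9 fell and 0 rose (39.1%, median -0.52), against 5.77% of all genes called lower and with positive fold changes for 10 and 4 members. Without NAMPT replicate 3, or with 2 surrogate variables, neither list held a call, and with the latter the medians were -0.05 and -0.18. The nuclear receptor Nr1i3 (CAR), which drives several P450 genes, had levels of 39.6, 50.3 and 65.7 CPM in EV and 10.5, 25.3 and 53.4 CPM in NAMPT (log2 fold change -0.95, SE 0.22, adjusted p = 0.0128). Replicates 5 and 6 were within the EV range. Cyp2c29 (log2 fold change -1.17, SE 0.30, adjusted p = 0.0155), Cyp2c37 (log2 fold change -1.74, SE 0.42, adjusted p = 0.0137), Cyp2d26 (log2 fold change -0.42, SE 0.10, adjusted p = 0.0149), the arachidonate epoxygenase Cyp2j5 (log2 fold change -0.52, SE 0.12, adjusted p = 0.0122) and Cyp2e1 (log2 fold change -0.98, SE 0.26, adjusted p = 0.0173) fell, as did the glucuronosyltransferases Ugt3a1 (log2 fold change -0.69, SE 0.15, adjusted p = 0.00994) and Ugt2b34 (log2 fold change -0.55, SE 0.13, adjusted p = 0.0128). Glutathione and NRF2 genes gave 6 falls and 1 rise of 30 (23.3%, against 13.4% of all genes in either direction), and 2 falls and 2 rises by the quasi-likelihood test and 2 falls and 0 rises without NAMPT replicate 3. Gstt3 (log2 fold change -1.19, SE 0.21, adjusted p = 0.00506), Gstt1 (log2 fold change -0.59, SE 0.11, adjusted p = 0.00754) and Gsta3 (log2 fold change -0.61, SE 0.15, adjusted p = 0.0139), which conjugate glutathione, fell, and the heme oxygenase Hmox1 rose (log2 fold change 0.79, SE 0.19, adjusted p = 0.0128). Nr1i3 shares long exon stretches with Tomm40l on the opposite strand. Without NAMPT replicate 3 no P450 or conjugation gene was called, and the quasi-likelihood test called 2 in each list. Of 16 pericentral genes 3 fell, which is 18.8% against 5.77% of all genes called lower, and of 12 periportal genes 1 rose, which is 8.33% against 7.67% called higher. The 12 hepatocyte markers gave 3 falls (25%), Cyp2e1 among them, with sums of 61946 to 79027 CPM in EV and 50973 to 72105 CPM in NAMPT. Pericentral genes and hepatocyte markers had 0 calls by the quasi-likelihood test, with 2 surrogate variables and without NAMPT replicate 3. The median of the hepatocyte markers was -0.10, and 0.04 with library size alone.

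**Figure D5:**
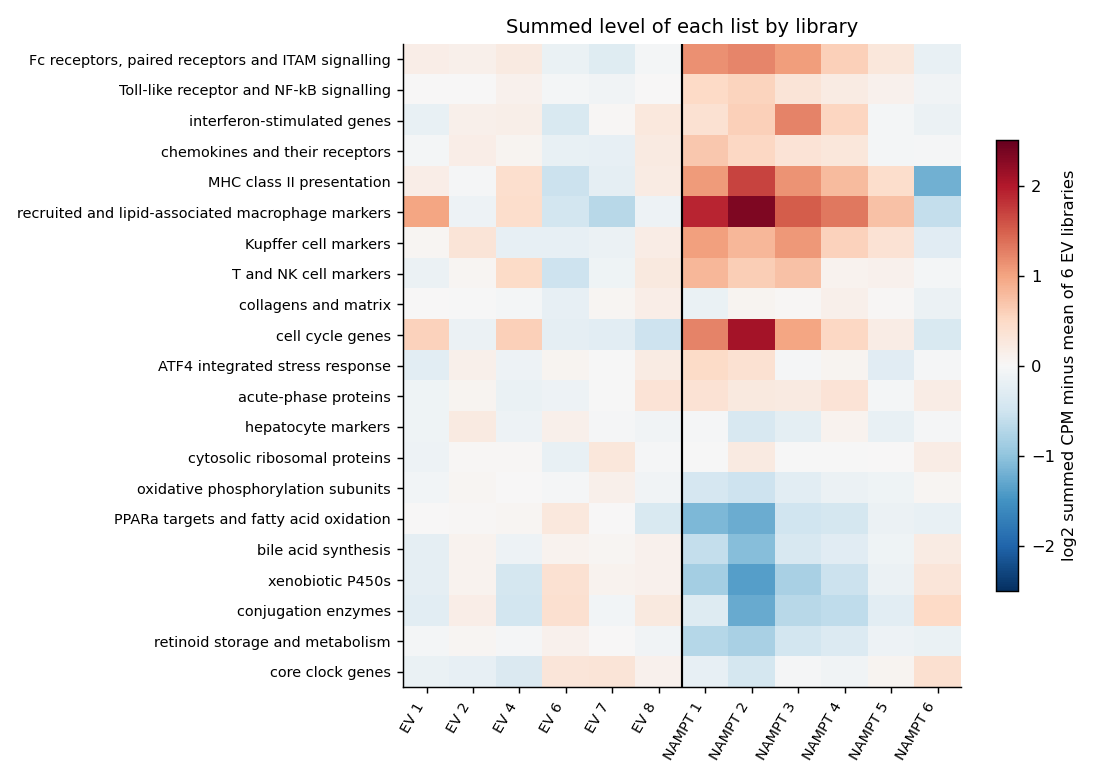
Summed TMM-normalized CPM of the tested members of 21 lists (rows) in each WD WT library (columns), on a log2 scale relative to the mean of the 6 EV libraries, with red for above and blue for below that mean. NAMPT replicates 1 to 4 are red for macrophage, MHC class II and Fc receptor genes and blue for PPARa, P450 and bile acid synthesis genes, replicate 5 is paler, and in most rows replicate 6 lies nearer to the EV mean or on its other side.

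Retinoid genes gave 8 falls and 2 rises of 26. Besides Aldh1a1 and Cyp26b1, the retinaldehyde reductase Dhrs3 was at 153 to 196 CPM in EV and 98.97 to 159 CPM in NAMPT (log2 fold change -0.55, SE 0.10, adjusted p = 0.00582), and the carotenoid oxygenase Bco2 fell (log2 fold change -0.48, SE 0.10, adjusted p = 0.0102). The list had 5 falls and 1 rise by the quasi-likelihood test and 4 falls and 1 rise without NAMPT replicate 3, but 1 fall with 2 surrogate variables. In glycogen and gluconeogenesis 4 of 21 genes fell (19%), among them Ppp1r3b, which targets a phosphatase to glycogen (log2 fold change -1.09, SE 0.28, adjusted p = 0.0161), and the branching enzyme Gbe1 (log2 fold change -0.55, SE 0.17, adjusted p = 0.0349). Methionine and one-carbon genes gave 4 falls and 1 rise of 18, against 1 fall and 1 rise by the quasi-likelihood test and 1 fall and 0 rises without NAMPT replicate 3. Cdo1, which oxidizes cysteine towards taurine, had levels of 995, 1175 and 1438 CPM in EV and 392, 734 and 1026 CPM in NAMPT (log2 fold change -0.77, SE 0.15, adjusted p = 0.00754), with Bhmt (log2 fold change -0.80, SE 0.21, adjusted p = 0.0171) and Shmt1 (log2 fold change -0.54, SE 0.13, adjusted p = 0.0129). Cholesterol synthesis had 3 falls of 24 (12.5%), including Hmgcs1 (log2 fold change -0.94, SE 0.23, adjusted p = 0.0137) and Tm7sf2 (log2 fold change -0.67, SE 0.15, adjusted p = 0.0121). In lipid droplet and uptake genes 5 of 27 fell (18.5%), such as Fitm1 (log2 fold change -1.23, SE 0.31, adjusted p = 0.0152) and Slc27a2 (log2 fold change -0.53, SE 0.13, adjusted p = 0.0158). Lipoprotein genes gave 4 falls, with Apoa2 (log2 fold change -0.57, SE 0.14, adjusted p = 0.014) and Mttp (log2 fold change -0.45, SE 0.11, adjusted p = 0.0152), and 1 rise, the sterol exporter Abcg1 (log2 fold change 0.79, SE 0.18, adjusted p = 0.0121), of 27. Of all genes 5.77% were called lower and 13.4% in either direction, beside 18.5% in either direction for lipoprotein genes, 27.8% for methionine and 38.5% for retinoid genes. The falls in glycogen, cholesterol synthesis, lipid droplet and lipoprotein genes went from 4, 3, 5 and 4 to 0, 1, 1 and 0 by the quasi-likelihood test. They went to 0 in each list without NAMPT replicate 3. Without EV replicate 8 cholesterol synthesis had 9 falls and lipid droplet genes had 11. With library size alone the medians of the lipoprotein and glutathione lists turned from -0.07 and -0.09 to 0.09 and 0.06.

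Core clock genes gave 6 falls and 0 rises among 19 tested (31.6%, against 5.77% of all genes called lower), while the median over the list was -0.03, and 0.10 with library size alone. Arntl (BMAL1), the activator of the loop, had levels of 4.88, 11.9 and 18.1 CPM in EV and 1.56, 3.19 and 7.12 CPM in NAMPT (log2 fold change -1.99, SE 0.44, adjusted p = 0.0119). Only NAMPT replicate 2, at 7.12 CPM, overlapped an EV library, and replicate 6 was the lowest. Its partners Clock (log2 fold change -0.43, SE 0.13, adjusted p = 0.0283) and Npas2 (log2 fold change -1.98, SE 0.64, adjusted p = 0.0419) fell too. Nfil3, a repressor at D-box sites, had levels of 16.2, 18.2 and 25.7 CPM in EV and 8.72, 10.98 and 13.5 CPM in NAMPT, without overlap (log2 fold change -0.84, SE 0.23, adjusted p = 0.0216). In chow-fed WT EV livers Arntl was at 34.1 ± 5.69 CPM and Nfil3 at 44.95 ± 10.8 CPM (SD, n = 3), higher than in both Western diet WT groups on average. Of 12 clock output genes 2 rose and 3 fell (41.7%, against 13.4% of all genes in either direction). Noct and the tetraspanin Tspan4 (log2 fold change 0.46, SE 0.14, adjusted p = 0.0323) were higher, and Elovl3 (log2 fold change -1.66, SE 0.42, adjusted p = 0.0155), Mreg (log2 fold change -0.88, SE 0.18, adjusted p = 0.00868) and the vasopressin receptor Avpr1a (log2 fold change -1.21, SE 0.32, adjusted p = 0.0173) were lower. Clock transcripts swing over the day, and without the hour of collection the vector and the time of day cannot be told apart for these genes. The hour is missing for every library, so the same limit holds for genes of the other lists that vary over the day. Without NAMPT replicate 3 no core clock or clock output gene was called, the quasi-likelihood test called 3 and 2, and the fit with 2 surrogate variables called 1 and 0.

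No gene of the glucocorticoid and fasting list (14 tested), the female-biased list (13), the cholangiocyte markers (5) or the erythroid markers (5) was called by limma. At an unadjusted p-value under 0.05 the counts were 5, 3, 0 and 0, and the quasi-likelihood test called 1 gene lower in each of the first 2 lists and 0 in the others. Male-biased targets of growth hormone had a median log2 fold change of -1.15 but 2 genes called lower of 37 (5.41%, against 5.77% of all genes), and the median was -0.04 by the quasi-likelihood test, -0.02 by DESeq2 and 0.67 with 2 surrogate variables. The replicate block gave 5 higher and 0 lower, and the calls numbered 13 without NAMPT replicate 6, 10 without NAMPT replicate 5, 14 without EV replicate 1, 16 without EV replicate 4 and 0 without EV replicate 2 or NAMPT replicate 3. Their summed level was 6748 to 26511 CPM in EV and 8892 to 44964 CPM in NAMPT, where replicate 6 was the highest. Lysosomal genes gave 6 rises of 36 (16.7%), immediate-early and heat-shock genes 4 of 20 (20.0%), and sinusoidal endothelial markers 1 rise and 1 fall of 11 (18.2%), against 7.67% of all genes called higher and 13.4% called in either direction. The calls in these 3 lists numbered 2, 1 and 0 by the quasi-likelihood test and 1, 1 and 0 without NAMPT replicate 3. Of 20 endoplasmic reticulum chaperones and unfolded protein response genes 2 were called lower (10%, against 5.77% of all genes), and of 33 urea cycle and amino acid genes 1 was called higher and 2 lower (9.09%, against 13.4% in either direction), and both lists held 0 calls without NAMPT replicate 3.

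Whether the vector effect differed between the genotypes was tested as an interaction. It was called for 1 gene of 14065 (0.00711%) by limma, against 2986 genes with an unadjusted p under 0.05. Adamtsl2 (ENSMUSG00000036040, chr2:27079379-27108981), a secreted protein of microfibrils, had levels of 3.44, 3.805 and 4.39 CPM in WT EV and 3.77, 5.98 and 8.63 CPM in WT NAMPT (log2 fold change 0.72, SE 0.17, adjusted p = 0.0125), and replicates 6 and 1 were the lowest of the NAMPT group. In livers labelled LKO the EV mean was 6.57 ± 0.759 CPM and the NAMPT mean 3.49 ± 1.28 CPM (SD, n = 5 in each). The difference of the log2 fold changes, LKO minus WT, was -1.90 ± 0.25 (SE, adjusted p = 0.000661 with limma). The quasi-likelihood test and the fit with 2 surrogate variables called 0 genes, with 1545 and 1856 at an unadjusted p-value under 0.05, and DESeq2 called 19 genes, all with a positive difference, so Adamtsl2 was not among them. For the other named genes a difference between genotypes was not shown. In LKO livers Pirb was at 5.52 ± 0.824 CPM with EV and 6.996 ± 3.44 CPM with NAMPT, Cyp8b1 at 310.4 ± 73.7 and 309.6 ± 91.4 CPM, Noct at 24.3 ± 5.94 and 29.3 ± 19.2 CPM, and Slc20a1 at 28.8 ± 2.85 and 29.2 ± 8.06 CPM (mean ± SD, n = 5 each). Their interaction values were -1.34 ± 0.33, 1.88 ± 0.41, -1.60 ± 0.51 and -0.81 ± 0.18 (SE), with adjusted p of 0.0681, 0.0582, 0.0984 and 0.0576. Without WT NAMPT replicate 6 the interaction was called for 638 genes, and without LKO NAMPT replicate 1 for 676.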

How the data were processed

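Liver RNA was selected with oligo-dT and sequenced in 25 libraries, with 6 WD WT EV, 6 WD WT NAMPT, 3 chow WT EV, 5 WD LKO EV and 5 WD LKO NAMPT. STAR 2.5.1a, featureCounts 1.4.6-p5 and GRCm38 are named in the submitters' processing notes. The study's methods say that reads aligned to 1 place and to 1 gene were counted, and strand is not given in the sources used here. The authors deposited whole gene counts per library, which were used for every test. The deposited CPM and RPKM columns were recomputed from the counts and gene lengths as a check (largest relative deviation 5.9e-14) and not used further. Totals per library were 20166175 to 32937326 counts, and 3 counts were 0.0911 to 0.149 CPM, which covers counting error only.

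Genes over 1 CPM in at least 2 libraries were kept (14065 of 41388), after 4 ribosomal RNA genes were left out. They were fitted with limma 3.58.1 in R 4.3.3 (voomWithQualityWeights, TMM factors from edgeR 4.0.16) over all 25 libraries with 1 mean per group. P-values were adjusted by Benjamini and Hochberg over all genes kept, and a gene was called at 0.05 or less. Levels are TMM-normalized CPM. The labels number the libraries without naming animals, so p-values measure the spread between libraries, and no 2 libraries of the same group agreed within sampling noise. The naming rule took the 15 largest called rises and the 15 largest called falls whose libraries did not overlap and whose mean log2 CPM was not under 1, and, from each gene list, up to 5 called members with the lowest adjusted p and up to 3 of the most abundant, with Nampt and Sirt1. Of the 30 genes without overlap 29 are named, and some genes that meet the rule are not reported here. The comparison, members and gene lists were chosen with earlier results of these data known, so no adjusted p over a list alone is given. On simulated counts for this comparison, 77% of 200 genes changed 2-fold were recovered among 14065, with 6 false calls. The simulated counts of each gene were drawn independently, without the shifts shared across genes that set the WT NAMPT libraries apart. The false calls therefore do not measure the error among the 1890 genes called. Alternatives were other scalings, filters, tests (DESeq2 1.42.0, edgeR), samples, a replicate block, 2 surrogate variables (sva 3.50.0) and leaving out each library. Promoters came from RefSeq (GRCm38.p6).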

Additional observations from a re-analysis of the deposited data

Results flagged for a closer look

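The 388 sets of 6 libraries, over the named genes and the summed lists, were searched for extreme libraries. In 16 the gap of such a library to the next, divided by the range, passed Dixon's limit for 6 values. Chance passes this limit in about 1 of 20 sets, so the 16 are not more than that rate would give. The sets share libraries and are not independent. In WT NAMPT replicate 6 the summed level of male-biased growth hormone targets was the highest (gap ratio 0.748, 44964 CPM), as was that of female-biased liver genes (0.664, 791 CPM), and Ypel2 was the lowest (0.808, 11.6 CPM). In replicate 2 of WT NAMPT, Myo5a (0.698, 11.96 CPM) and Arntl (0.642, 7.12 CPM) were the highest, and in replicate 3 Isg15 was (0.667, 34.4 CPM).

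In WT EV, replicate 8 was the lowest for summed B cell markers (0.645, 15.1 CPM) and cholesterol synthesis genes (0.749, 1835 CPM) and the highest for Saa3 (0.662, 23.4 CPM) and Avpr1a (0.689, 15.1 CPM). Replicate 6 was the highest for Ugt2b34 (0.629, 497 CPM) and for summed insulin and PI3K-AKT genes (0.653). Replicate 4 was the highest for Ptpn6 (0.801, 23.8 CPM), replicate 1 for Lpl (0.681, 76.02 CPM) and replicate 7 for summed mitochondrial ribosomal protein genes (0.762), and replicate 2 was the lowest for Mmp2 (0.684, 1.36 CPM).

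By limma, the effect of the NAMPT vector on Adamtsl2 differed between the genotypes, at -1.9 on the log2 scale for LKO minus WT (SE 0.25, adjusted p = 0.000661). It was not called by the quasi-likelihood test, DESeq2, the fit with 2 surrogate variables or voom without quality weights.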

How the results depend on the processing

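The count of 1890 genes called fell to 68 with 2 surrogate variables, 192 without sample quality weights, 428 by edgeR's quasi-likelihood test, 524 without a filter on low counts, 653 with the 2 groups compared fitted alone, 851 by edgeR's exact test, 884 with the replicate number as a block and 1194 by DESeq2. It stayed within 1.5 times of 1890 with other size factors or a filter on mean CPM. Leaving out 1 library gave 132 (WT NAMPT replicate 3) to 2846 genes (WT NAMPT replicate 6), with 291 without WT EV replicate 2, 624 without WT EV replicate 6, 731 when WT NAMPT replicate 2 was dropped and 1246 when replicate 1 was. The cause was not tested.

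The interaction, called for 1 gene, gave 0 genes with 2 surrogate variables, by the quasi-likelihood test and without quality weights (1856, 1545 and 1633 at an unadjusted p under 0.05), 3 with library size only, 4 without a filter on low counts, 19 by DESeq2, all of them positive and so without Adamtsl2, and 66 with the replicate block. Leaving out 1 library gave 1 to 676 genes, with 676 without LKO NAMPT replicate 1, 638 without WT NAMPT replicate 6, 366 without WT NAMPT replicate 5, 62 without WT EV replicate 8, 33 without LKO EV replicate 4 and 19 without LKO EV replicate 3. The exact test compares 2 groups and was not run for the interaction.

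Replicate numbers 1, 2, 4 and 6 occur in both WT groups. Deviations of same-numbered libraries correlated at -0.228 to 0.415 (mean 0.12 over 4 pairs), so the numbers were not taken as pairs, and the block lowered the calls from 1890 to 884.

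The direction was kept in 3193 of 3197 comparisons of 139 named genes with 23 alternatives. It turned for Sirt1 (0.0032 with 2 surrogate variables and 0.0442 with library size only), Col3a1 (-0.0236 with 2 surrogate variables) and Abcb1a (-0.0817 with 2 surrogate variables). Of the 139 genes, 119 lost their call with 2 surrogate variables and kept their direction, 99 without quality weights and 68 by the quasi-likelihood test.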
